A study of Rattus norvegicus with 10 samples.

Results

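The luminal and alveolar transcription factors of the mammary gland were followed in 5 DMBA-induced rat mammary tumours, each sampled as an early needle biopsy and as the whole tumour. The group was given by name and not by measured values, and held 10 genes: Foxa1, Gata3, Tfap2c, Elf5, Stat5a, Stat5b, Elf3, Ehf, Sox9 and Tp63. Of these, 9 had at least 1 probe set (a group of short probes that reads a transcript) annotated to that gene alone, out of 14217 genes with such a probe set on the array. Sox9 had none in the platform annotation used here and has no value below. Where a gene had several, the one brightest on average over the 10 arrays, on the log2 scale, stands for it. Gata3 and Tp63 had 2 probe sets each, which made 11 member probe sets in all.

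Both groups came from female Sprague-Dawley rats, an outbred strain, given 100 mg/kg of the carcinogen 7,12-dimethylbenz(alpha)anthracene (DMBA) once by mouth and labelled as receiving no treatment. The biopsies were trucut cores of 0.7 cm by 2.5 mm, taken at 12 weeks of age when a tumour measured 2 cm3, and the total tumours were collected at sacrifice at 19 weeks. Tumours 31D3, 32D1, 37I1, 50I1 and 52I4 each gave 1 array per moment, 5 biopsies and 5 total tumours, and the series text says that samples were chosen by histological grade. The late samples are named total tumour here after their own labels, although the series text describes them as trucut samples too. Age, moment and way of sampling go with the group and cannot be told apart. No label ties a tumour to a particular rat, and some tumours may share an animal. The p-values for total tumour against biopsy measure only how the pair differences spread over these tumours. The F test below sets differences between these tumours against the spread within them.

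The mammary epithelium is a bilayer of luminal cells, which line the ducts and alveoli, over basal myoepithelial cells. GATA3 and FOXA1 maintain the hormone-sensing luminal cells, FOXA1 by opening chromatin for the estrogen receptor. ELF5 and STAT5, the latter activated by the prolactin receptor through the kinase JAK2, drive the alveolar cells that make milk, and p63 maintains the basal layer.

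Array medians of log2 signal lay between 5.99 and 6.11. The normalization of the deposited values brings the medians together, so this does not show that the samples were alike. Precision is limited by how few arrays there were. The mean log2 signal of the 16-gene luminal list lay between 10.96 and 11.08 in the biopsies and between 10.88 and 11.18 in the total tumours. Single markers could be lower, such as Kit at 5.59 and Muc1 at 6.24 in total tumour 32D1. The mean of 8 fibroblast genes moved far more, from 8.20 in biopsy 37I1 to 11.90 in biopsy 50I1, and lay between 10.45 and 11.77 in the total tumours. In bulk tissue, fewer cells of a type and less RNA per cell cannot be told apart.

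None of the 8 members tested had a difference between biopsies and total tumours that could be called, given the spread of pair differences. Elf5 had the widest range over the arrays. Gata3, Stat5a, Stat5b and Tp63 had lower means in the total tumours, and Elf5, Elf3, Ehf and Tfap2c had higher means, so 4 of 8 were lower where 48.8% of the 10793 genes tested were. With limma's paired fit, 0 of 8 members and 0.0% of 18625 probe sets had an adjusted p under 0.05, and the members' adjusted p values lay between 0.846 and 0.970. At an unadjusted p under 0.05 there were 0 of 8 members in limma and 0 of 8 in the methods' own test for paired samples, against 4.17% of all genes in limma. The members' median difference was -0.10 on the log2 scale, beside 0.00393 for all genes tested. In each of the 8 members the values of biopsies and total tumours overlapped, and 0.417% of all genes had groups that did not.

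**Figure D1:**
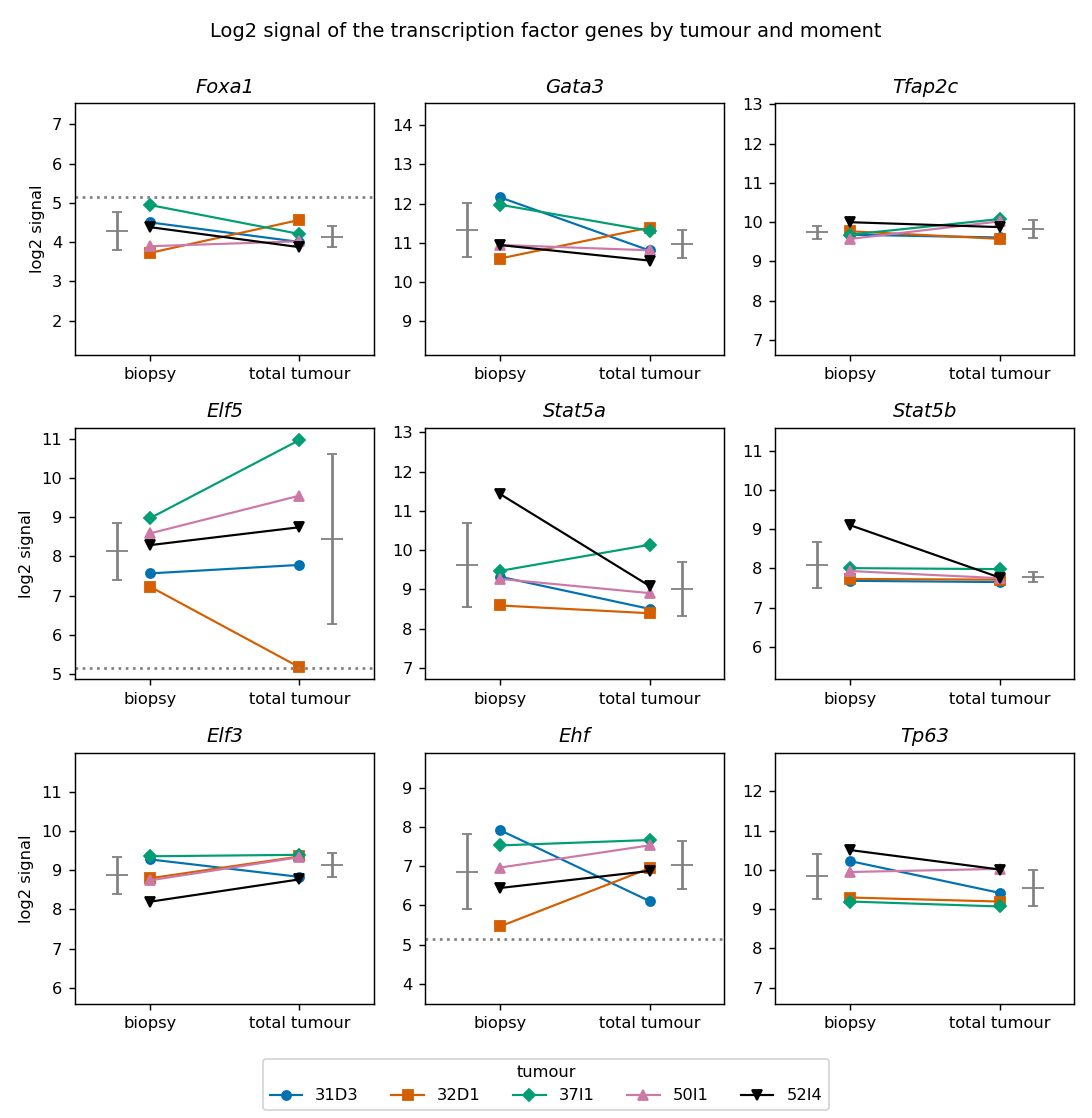
Log2 signal of each of the 9 measured genes in biopsy and total tumour, 1 line per tumour, with the mean and SD of each group in grey (n = 5) and the limit for testing, 5.15, as a dotted line. Every panel spans the same number of log2 units: Tfap2c stays within 0.51 and Elf5 spans 5.79.

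Gata3 had lower values in the total tumour in 4 of 5 pairs, and 32D1 went the other way. In the biopsies its log2 signal was 12.16 in 31D3, 10.60 in 32D1, 11.97 in 37I1, 10.95 in 50I1 and 10.94 in 52I4. In the total tumours it was 10.80, 11.39, 11.31, 10.81 and 10.55 in the same order. The biopsies of 31D3 and 37I1 stood above all other arrays, and the total tumours lay closer together, with an SD of 0.36 against 0.69 in the biopsies (n = 5 each). The mean difference was -0.35 (SE 0.287, 95% interval -1.04 to 0.34, adjusted p = 0.882 in limma). Without tumour 32D1 it was -0.64, and without 31D3 it was -0.10.

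The second Gata3 probe set showed the same tumours high and low. It differed by -0.52 (SE 0.290) and had the same sign as the first in 5 of 5 pairs, with a largest gap between the probe sets' pair differences of 0.30. The biopsies of 31D3 and 37I1, where Gata3 was highest, had fibroblast list means of 10.66 and 8.20, and their total tumours 11.40 and 10.69. In both tumours Gata3 was thus lower, and the fibroblast mean higher, in the total tumour. In 52I4 the fibroblast mean differed by 1.52 with Gata3 lower by 0.40, in 50I1 by -1.46 with Gata3 lower by 0.14, and in 32D1 by -0.43 with Gata3 higher by 0.79. The directions were thus opposite in 4 of 5 tumours. Elf5 went the same way as the fibroblast mean in 31D3, 32D1, 37I1 and 52I4, and the opposite way in 50I1. Because Elf5 went opposite to Gata3 in every tumour, this restates the Gata3 directions and is no separate contrast. The leukocyte list mean went opposite to Gata3 in 31D3, 32D1 and 37I1. In 50I1 and 52I4 it differed by -1.21 and -0.44, the same way as Gata3. The part of the stroma in these differences was not tested.

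Foxa1 was not detectable above the limit used here in any array. Its log2 signal lay between 3.73 and 4.95 in the biopsies and between 3.87 and 4.57 in the total tumours, and 0 of 10 arrays reached the limit of 5.15. It was left out of the main test and of all counts, and in a fit without the limit it differed by -0.16 (SE 0.234, adjusted p = 0.898 in limma). Its probe set reading low does not show that the gene was silent, since a single probe set can read poorly. The estrogen receptor gene Esr1, at a mean log2 signal of 4.68, and the relatives Foxa2 and Foxa3 were also under the limit.

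Genes linked to the estrogen receptor, FOXA1 and GATA3 were lower in 7 of 9 tested, with a median difference of -0.32. Of the 9, 0 had an adjusted p under 0.05 and 2 an unadjusted p under 0.05 in limma. Over all genes tested, 48.8% were lower and 4.17% had an unadjusted p under 0.05 in limma. The list counts below are to be read against the same shares. The progesterone receptor Pgr, a classic estrogen target, differed by -1.27 (SE 0.274), lower in 5 of 5 pairs, and Greb1, a receptor cofactor, by -0.76 (SE 0.468). The trefoil factor genes Tff1 and Tff3 differed by 0.15 (SE 0.118) and 0.10 (SE 0.109). The mean of this list was lower in the total tumour of each tumour, including 32D1, where Gata3 was higher.

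Tfap2c, which encodes AP-2 gamma, a factor of luminal cells and their progenitors, was the steadiest member. It read 9.68, 9.77, 9.68, 9.57 and 9.998 in the biopsies of 31D3, 32D1, 37I1, 50I1 and 52I4, and 9.61, 9.57, 10.08, 10.02 and 9.87 in their total tumours. All 10 values lay within 0.51 log2 units, and the groups overlapped throughout. The difference was 0.09 (SE 0.134, 95% interval -0.23 to 0.41, adjusted p = 0.940 in limma), and it was 0.00235 without 50I1, 0.01 without 37I1, 0.16 without 32D1 and 0.15 without 52I4. The genes most like it in pattern were the potassium channel gene Kcnj15 (r 0.90) and the scramblase gene Plscr3 (r 0.89). Its SD over the arrays, 0.19, was below that of most genes tested, at percentile 35.6. The relatives Tfap2a and Tfap2b differed by -0.12 (SE 0.230) and -0.14 (SE 0.259).

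Elf5, the ETS factor that specifies alveolar cells, had the widest range of the members. In the biopsies its log2 signal was 7.57 in 31D3, 7.23 in 32D1, 8.98 in 37I1, 8.59 in 50I1 and 8.29 in 52I4. In the total tumours it was 7.79, 5.18, 10.97, 9.55 and 8.75. The SD was 0.72 in the biopsies and 2.17 in the total tumours (n = 5 each), a difference in spread that was not tested. Between the lowest and the highest array lay 5.79 log2 units, or 55.4-fold, and the lowest, total tumour 32D1, was just above the limit of 5.15. An SD of 1.53 over the 10 arrays put Elf5 at percentile 99.4 of the genes tested.

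Elf5 was higher in the total tumour in 4 of 5 pairs, by 0.22 in 31D3, 1.99 in 37I1, 0.96 in 50I1 and 0.46 in 52I4, and its difference in 32D1 was -2.06. The mean difference was 0.31 (SE 0.531, 95% interval -0.96 to 1.59, adjusted p = 0.946 in limma). Without 32D1 it was 0.91, without 37I1 it was -0.11, and without 50I1 it was 0.15. Leaving out 37I1 alone turned the direction of the mean.

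Milk genes, the product of alveolar cells, had their largest difference in the same tumour. The mean of 8 milk genes differed by -3.23 in 32D1, where Elf5 was lower by 2.06, and by 1.15 in 50I1, where Elf5 was higher. In 31D3 and 37I1 the milk mean differed by 0.43 and 0.32, and in 52I4 by -0.11, where Elf5 was higher. In 52I4, 6 of the 8 milk genes were higher in the total tumour as well, and the negative mean came with Glycam1 at -3.80 and Xdh at -0.58. Casein genes in 32D1 went from 12.46 to 3.82 for Csn2 and from 12.94 to 9.75 for Csn1s1, and the whey gene Wap from 9.19 to 5.20. Csn2 was under the limit of 5.15 in that total tumour, in both samples of 31D3 and in biopsy 52I4, so its differences there, and their part in the milk means, are not exact. Total tumour 37I1 had the highest Elf5 but not the highest milk mean, which was 11.34 there and 11.98 in 50I1. Over all tumours, 5 of 8 milk genes were lower and 3 higher, with 0 past the adjusted threshold, 0 at an unadjusted p under 0.05 in limma and a median of -0.18. Named by rule, Glycam1 differed by -1.73 (SE 0.826), Lalba by -0.58 (SE 0.651), Mfge8 by 0.19 (SE 0.218) and Wap by 0.40 (SE 1.14). Glycam1 was near the limit in both samples of 37I1, in biopsy 31D3 and in total tumours 32D1, 50I1 and 52I4. Wap was near it in both samples of 31D3 and in total tumour 32D1, so the differences of both genes are not exact either.

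The genes whose pattern over the 10 arrays was most like that of Elf5 were Lbp, which encodes lipopolysaccharide-binding protein, and Plscr2, a phospholipid scramblase gene. Their Pearson r with Elf5 was 0.98 and 0.97, given as a description since the 10 arrays come from 5 tumours and the pair was picked from all genes tested. Lbp went from 9.82 to 8.44 in 32D1 and from 11.69 to 13.00 in 37I1.

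**Figure D2:**
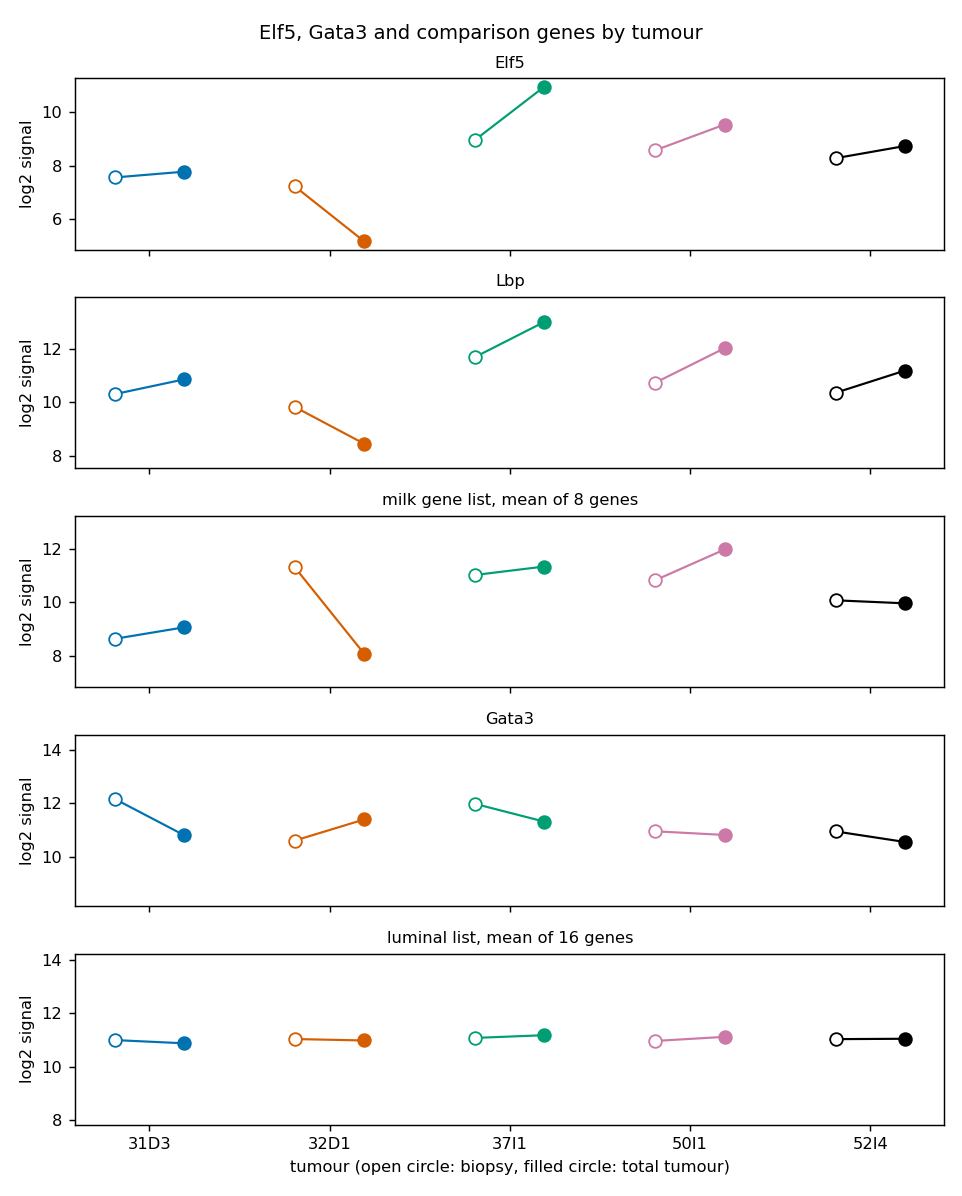
Log2 signal in biopsy (open) and total tumour (filled) of each tumour for Elf5, Lbp, the mean of 8 milk genes, Gata3 and the mean of 16 luminal genes, with equal axis spans. Elf5, Lbp and the milk mean are lowest in total tumour 32D1, Gata3 goes opposite to Elf5 in every tumour, and the luminal mean stays between 10.88 and 11.18.

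Gata3 and Elf5 differed in opposite directions in 5 of 5 tumours, although their Pearson r over the 10 arrays was only -0.07. Of the 28 pairs of tested members, this was the 1 pair opposite in all tumours, and Elf3 with Ehf was the 1 pair that went the same way in all. With 28 pairs and 5 tumours such counts are a description only. Stat5a and Stat5b had the highest r, 0.91, and Stat5b and Elf3 the lowest, -0.63. Most like Gata3 in pattern were Ppp1r13b (r 0.96) and Zmynd15 (r 0.96).

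Stat5a and Stat5b encode the closely related STAT5 proteins that carry the prolactin signal. They are direct neighbours on rat chromosome 10 in the RefSeq annotation of assembly GRCr8, where Stat3 follows Stat5a. Their promoters are shown because both genes were highest in the same array, biopsy 52I4. The 250 bases before each start are from the RefSeq table of GRCr8, 5′ to 3′ on the gene's strand, with each GGAA or its reverse complement TTCC, the core that ETS factors such as ELF5 bind, in capitals. That of Stat5a is chr10:86285609-86285858 on the plus strand, and that of Stat5b is chr10:86275953-86276202 on the minus strand.
Stat5a: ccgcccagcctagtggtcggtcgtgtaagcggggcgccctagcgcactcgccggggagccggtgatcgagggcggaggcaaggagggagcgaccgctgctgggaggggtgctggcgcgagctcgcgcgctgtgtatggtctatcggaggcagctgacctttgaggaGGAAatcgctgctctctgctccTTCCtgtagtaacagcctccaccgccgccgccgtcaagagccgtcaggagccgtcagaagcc
Stat5b: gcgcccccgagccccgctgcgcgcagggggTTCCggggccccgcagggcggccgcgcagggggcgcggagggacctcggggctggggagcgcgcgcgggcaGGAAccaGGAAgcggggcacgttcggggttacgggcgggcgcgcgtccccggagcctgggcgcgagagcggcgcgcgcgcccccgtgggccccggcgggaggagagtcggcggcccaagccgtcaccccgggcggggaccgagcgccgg

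The core was present 2 times in the Stat5a window and 3 times in the Stat5b window. It is no distinction, since 93.2% of 33469 windows of this length in the table held it, with a median of 3 matches. The STAT motif TTCNNNGAA, which reads the same on both strands and is in 7.67% of windows, and the GATA motif AGATAA, searched on both strands and in 10.3%, had 0 matches in both windows. TTCC and TTCNNNGAA can overlap by their first 3 letters, and a match or its lack says nothing of binding. The Stat5b window was 84.0% G or C and the Stat5a window 67.6%. Of the 10 genes, 5 were matched in the table by symbol.

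Stat5a had a log2 signal of 9.32 in 31D3, 8.59 in 32D1, 9.47 in 37I1, 9.26 in 50I1 and 11.43 in 52I4 in the biopsies. In the total tumours it was 8.50, 8.39, 10.13, 8.90 and 9.09. Biopsy 52I4 stood alone at the top, and 37I1 was the tumour in which the total tumour was higher, by 0.67. The mean difference was -0.61 (SE 0.398, 95% interval -1.57 to 0.35, adjusted p = 0.873 in limma), lower in 4 of 5 pairs. The pair difference of 52I4 alone was -2.34. The mean was -0.18 without that tumour, -0.93 without 37I1 and -0.92 with array weights, by which limma lets more variable arrays count less.

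Stat5b read 7.68, 7.73, 8.01, 7.93 and 9.10 in the biopsies of 31D3, 32D1, 37I1, 50I1 and 52I4, and 7.65, 7.71, 7.98, 7.75 and 7.77 in the total tumours. Apart from biopsy 52I4 the values lay close together. It was lower in the total tumour in 5 of 5 pairs, which 5.83% of all genes matched in either direction, and it was the 1 of 8 members to do so. In 3 of these pairs the difference was small, at -0.03, -0.02 and -0.03, and in 52I4 it was -1.33. The mean difference was -0.32 (SE 0.217, 95% interval -0.84 to 0.20, adjusted p = 0.873 in limma), -0.06 without 52I4 and -0.50 with array weights. Stat5a and Stat5b are close copies, and probes of one may read the other's transcript, so which gene carried the shared high value is uncertain. Stat3, next to them, had 10.80 in biopsy 52I4 and 9.97 in its total tumour, a pair difference of -0.83 against a mean of -0.28 (SE 0.140).

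Biopsy 52I4 did not stand out for milk genes, with a list mean of 10.08, nor for luminal genes, at 11.03. That biopsy had the highest mean of all arrays for genes linked to the estrogen receptor, FOXA1 and GATA3 (8.28). It was also highest for the p63 list (10.40), the basal and myoepithelial list (10.64) and other mammary transcription factors (8.81). Genes of the STAT5 pathway and its known targets, a list that holds Elf5, Csn2 and Wap, were higher in 9 and lower in 4 of 13 tested, with a median of 0.08, 0 past the adjusted threshold and 0 at an unadjusted p under 0.05 in limma. Socs2 and Socs3, feedback inhibitors of the pathway, differed by -0.42 (SE 0.240) and 0.39 (SE 0.198). In 52I4 Socs2 went from 6.79 to 5.60, the highest biopsy for that gene. The prolactin receptor Prlr differed by -0.27 (SE 0.280), and Csn2 by -0.43 (SE 1.87). Most like Stat5a in pattern were the zinc finger gene Zfp202 and Fv1, both with r 0.97, and most like Stat5b were Ndrg3 (r 0.96) and the aldehyde dehydrogenase gene Aldh3a2 (r 0.95).

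Elf3 and Ehf encode ETS factors found in epithelia, and both were higher in the total tumour in the same 4 of 5 tumours. Elf3 read 9.28 in 31D3, 8.80 in 32D1, 9.36 in 37I1, 8.74 in 50I1 and 8.20 in 52I4 in the biopsies, and 8.83, 9.35, 9.39, 9.33 and 8.77 in the total tumours. The mean difference was 0.26 (SE 0.180, 95% interval -0.17 to 0.70, adjusted p = 0.873 in limma). Without 31D3, the tumour that went down, it was 0.44, with an unadjusted p of 0.0206 and an adjusted p of 0.9997 in limma. Most like it in pattern were Pwwp2b (r 0.94) and the zinc finger gene Zfp395 (r 0.92).

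Ehf, whose gene lies next to Elf5 on chromosome 3 in the same annotation, varied more. Its log2 signal was 7.92, 5.46, 7.53, 6.96 and 6.44 in the biopsies of 31D3, 32D1, 37I1, 50I1 and 52I4, and 6.11, 6.94, 7.66, 7.53 and 6.87 in the total tumours. The pair differences ran from -1.81 in 31D3 to 1.48 in 32D1. Tumour 31D3 had the highest biopsy and the lowest total tumour, and 32D1 had the lowest biopsy. The mean was 0.16 (SE 0.434, 95% interval -0.88 to 1.21, adjusted p = 0.970 in limma), and -0.17 without 32D1, 0.65 without 31D3, 0.06 without 50I1, 0.09 without 52I4 and 0.34 with array weights. Ehf and its neighbour Elf5 went opposite ways in 31D3 and 32D1. Most like Ehf in pattern were Abhd14b (r 0.96) and the transporter gene Slc37a1 (r 0.95).

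Of 17 other ETS factor genes tested, 7 were higher and 10 lower, with a median of -0.04, 0 past the adjusted threshold and 0 at an unadjusted p under 0.05 in limma. Etv4 differed by -0.70 (SE 0.386), Ets2 by -0.23 (SE 0.261), Elk3 by 0.13 (SE 0.185) and Erg, an endothelial factor, by 0.14 (SE 0.270).

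Tp63, which encodes p63, the factor of basal epithelial cells, kept only part of its order of tumours between the moments. In the biopsies it read 10.22 in 31D3, 9.29 in 32D1, 9.19 in 37I1, 9.94 in 50I1 and 10.50 in 52I4, and in the total tumours 9.41, 9.19, 9.07, 10.02 and 10.01. Tumours 32D1 and 37I1 had the lowest values at both moments, and 52I4 had the highest biopsy with a total tumour close to that of 50I1. Tumour 31D3 was above 50I1 in the biopsies and below it in the total tumours. The mean difference was -0.29 (SE 0.149, 95% interval -0.65 to 0.07, adjusted p = 0.846 in limma), lower in 4 of 5 pairs, and -0.16 without 31D3. The second, dimmer Tp63 probe set had the same sign in 5 of 5 pairs. Its difference was -0.46 (SE 0.179), with an unadjusted p of 0.0395 and an adjusted p of 0.794 in limma, and 9 of 10 arrays reached the limit.

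Genes linked to p63 in basal cells were lower in 8 of 10 tested, with a median of -0.16, 0 past the adjusted threshold and 1 at an unadjusted p under 0.05 in limma. Dst, a hemidesmosome linker, differed by -0.48 (SE 0.197) and the P-cadherin gene Cdh3 by -0.30 (SE 0.188). The basal keratins Krt5 and Krt14 differed by 0.09 (SE 0.0953) and 0.08 (SE 0.117). The wider basal and myoepithelial list shares genes such as Krt5, Krt14 and Cdh3 with the p63 list, so their counts are not independent. That wider list was lower in 9 of 12, with a median of -0.25. Of its genes, 0 passed the adjusted threshold and 2 had an unadjusted p under 0.05 in limma. The genes nearest to Tp63 in pattern were Gprasp2 (r 0.99) and Lhfpl6 (r 0.97).

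**Figure D3:**
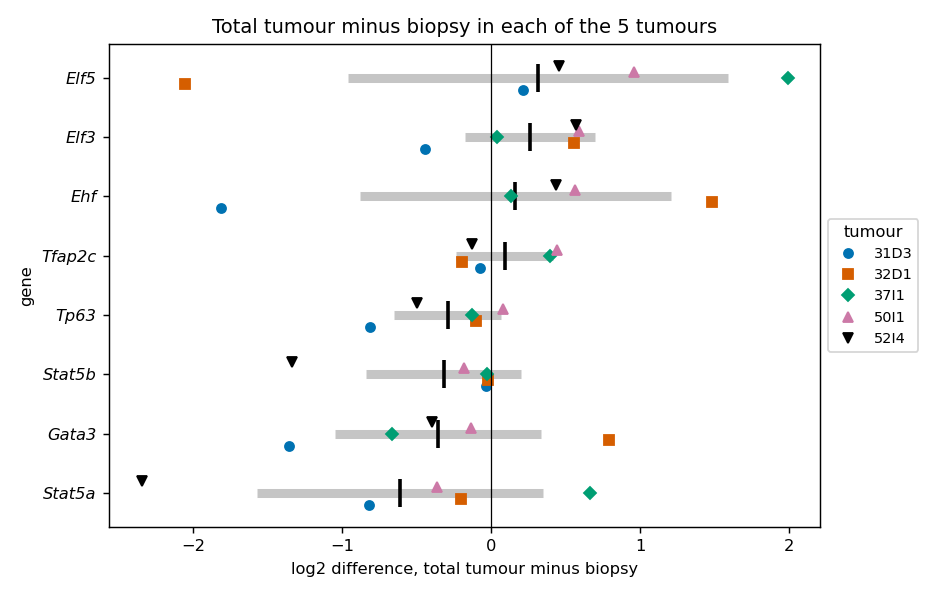
Log2 difference, total tumour minus biopsy, of the 8 tested members: 1 point per tumour, the mean as a black tick and the 95% interval of limma's fit in grey. All 8 intervals include 0. The point farthest from 0 is 52I4 for Stat5a, at -2.34, followed by 32D1 for Elf5, at -2.06.

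The labels allow a second question, whether the tumours differed from each other over both moments. The moderated F test of limma, with the 2 samples of a tumour as its replicates and the moment as a term, gave 0 of 8 members with an adjusted p under 0.05, where 0.0859% of all probe sets passed. At an unadjusted p under 0.05 there were 2 of 8, Tp63 and Elf5, against 10.1% of all genes. Tp63 had an unadjusted p of 0.0102 (adjusted p = 0.354 in limma) and Elf5 one of 0.0254 (adjusted p = 0.416 in limma). The tumour means of Tp63 were 10.26 in 52I4, 9.98 in 50I1, 9.82 in 31D3, 9.24 in 32D1 and 9.13 in 37I1. Their SD was 0.48 against a residual SD of 0.25, and the neighbours in this order differed by less than that residual SD except for 31D3 and 32D1 and for 52I4 and 50I1.

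The tumour means of Elf5 were 9.97 in 37I1, 9.07 in 50I1, 8.52 in 52I4, 7.68 in 31D3 and 6.21 in 32D1. Their SD was 1.43 against a residual SD of 1.05, so neighbours in the order other than 31D3 and 32D1 lay closer than the residual SD. Stat5a, at percentile 95.5 for its SD over the arrays, and Ehf, at percentile 92.7, were also variable. The F test gave them unadjusted p values of 0.139 and 0.387 (limma), so a difference between tumours was not shown for either.

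**Figure D4:**
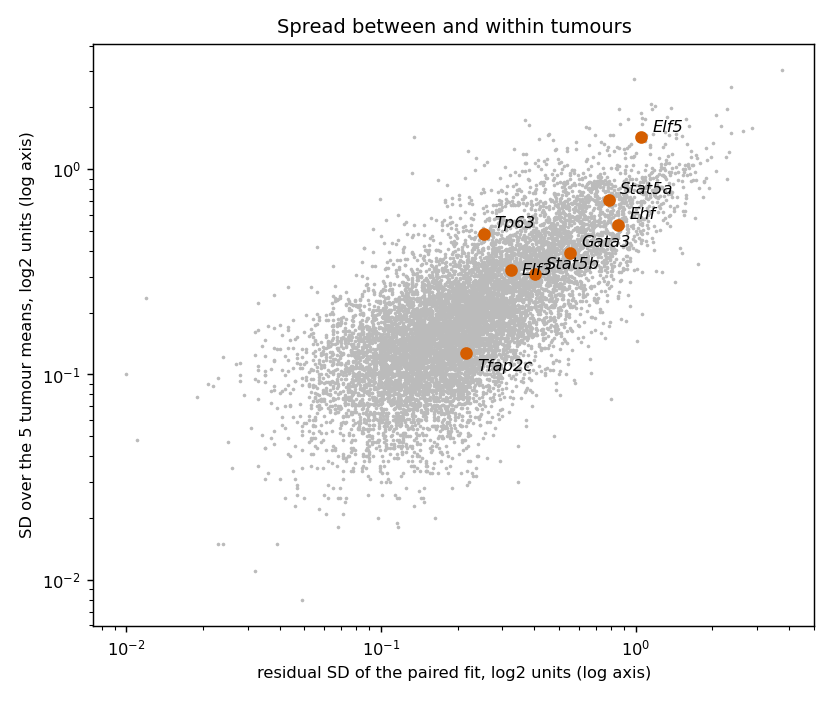
SD over the 5 tumour means against the residual SD of the paired fit, both in log2 units on log axes, for 10793 tested genes (grey) and the 8 members (orange). Elf5 is far out on both axes (1.43 and 1.05), Tp63 has a higher SD of tumour means (0.48) than residual SD (0.25), and Tfap2c has an SD of tumour means of 0.13, beside a median of 0.18 over all genes, and a residual SD of 0.22, beside a median of 0.21.

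Other members of the GATA, STAT, AP-2, FOX, SOX and p53 families were higher in 8 and lower in 15 of 23 tested, with a median of -0.03, 0 past the adjusted threshold and 0 at an unadjusted p under 0.05 in limma. Foxp1 differed by -0.35 (SE 0.186), Sox4 by -0.32 (SE 0.220), and the endothelial factors Sox7 and Sox18 by 0.58 (SE 0.322) and 0.24 (SE 0.259). Other transcription factors of mammary epithelium, a list that also holds Pgr, were split evenly, 16 higher and 16 lower of 32. In limma, 0 were past the adjusted threshold and 6 had an unadjusted p under 0.05, against 4.17% of all genes. Of the 32, Id1, an inhibitor of basic helix-loop-helix factors, had the highest difference at 1.05 (SE 0.228), higher in 5 of 5 pairs. Cebpd differed by 0.55 (SE 0.264). Cited4, a transcriptional cofactor, differed by -1.11 (SE 0.660).

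Luminal markers were higher in 9 and lower in 7 of 16, with a median of 0.01, 0 past the adjusted threshold and 2 at an unadjusted p under 0.05 in limma. Aldh1a3, an enzyme of luminal progenitors, differed by 0.52 (SE 0.131) and Krt7 by 0.41 (SE 0.266), while the mucin gene Muc1 differed by -0.50 (SE 0.339) and the growth factor gene Areg by -0.34 (SE 0.454). Among markers of other cells, 8 of 8 fibroblast, 7 of 9 leukocyte, 4 of 5 endothelial and 3 of 3 adipocyte genes had higher means in the total tumours. Their pair differences split by tumour, as for fibroblast genes with 2.48 in 37I1 and -1.46 in 50I1. Skin keratinocyte genes, which share p63, ELF3 and EHF with mammary epithelium, were higher in 3 of 3, with Dmkn at 1.42 (SE 0.252), and skeletal muscle genes lower in 2 of 2. Of the latter, Acta1 differed by -1.44 (SE 0.499) and reached the limit of 5.15 only in both samples of 37I1 and in biopsy 50I1, and Atp2a1 differed by -0.02 (SE 0.156) and was higher in 4 of 5 pairs. Cartilage genes, a tissue in which SOX9 acts, were higher in 1 of 3. The part of these cells in the members' differences was not tested.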

How the data were processed

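The authors deposited log2 signals per probe set, 1 column per Affymetrix rat genome array, normalized with RMA per the submitters' processing notes. RMA forces the arrays onto a common distribution, so shifts shared by most transcripts are lost. The chip definition is not given in the sources used here. That the scale is log2 follows from the range of the values, 2.34 to 14.26.

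Of 31099 probe sets, 57 controls were left out. Of the rest, 20826 had 1 gene, 436 several and 9780 none listed. The dimmest 40% by mean signal, with a limit of 5.15, were left out, which left 18625 probe sets and 10793 genes. Total tumours were compared with biopsies by limma 3.58.1 in R 4.3.3 (lmFit, eBayes), with the tumour as a block and Benjamini-Hochberg adjustment over all probe sets tested, at a threshold of 0.05. The same fit gave the F test between tumours. Intervals are limma's 95% intervals.

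The pairing comes from tumour names in the labels. Deviations from group means correlated above 0.1 in 4 of 5 pairs, from -0.214 to 0.338, and between -0.513 and 0.357 across different tumours. The pair at -0.214 was 50I1, whose biopsy was closest to total tumour 31D3, at 0.357. Of the 5 biopsies, 3 were closest to their own total tumour.

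Members and marker lists were chosen with earlier results of these data known. From each list the 2 lowest and 2 highest differences were named, and for each member the 2 genes most alike in pattern. Other list genes (such as Csn1s1, Prlr, Stat3, Esr1, Foxa2, Foxa3, Tfap2a and Tfap2b) were named after their values were seen. Steps were tested on simulated data. Alternatives were other filters, scalings, limma settings and probe set summaries, the fit without the block, the study's paired test, and leaving out each tumour. Figures were drawn with matplotlib 3.10.9.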

Additional observations from a re-analysis of the deposited data

Results flagged for a closer look

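Stat5b in biopsy 52I4 was flagged because its log2 signal of 9.10 stood apart from the other 4 biopsies, and the pair difference of the same tumour, -1.33, stood apart from the other 4 pairs. The gap to the nearest value was 0.772 and 0.874 of the whole range, above Dixon's critical value for 5 values. These were 2 of 33 sets of 5 values examined, and chance flags about 1 in 20.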

How the results depend on the processing

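No member passed an adjusted p under 0.05 for total tumour against biopsy under any of 15 alternatives, with a lowest adjusted p of 0.550, nor for the difference between tumours under any of 14, with a lowest of 0.225. The sign of each member's difference held under all alternatives other than leaving out a tumour, and reversed in 2 of 40 values when a tumour was left out. The mean ranged from -0.17 to 0.65 for Ehf, lowest without 32D1, and from -0.11 to 0.91 for Elf5, lowest without 37I1. The count of members with an unadjusted p under 0.05, 0 in the paired fit, ranged from 0 to 2 when a tumour was left out. These were Elf3 and Ehf without 31D3 (adjusted p = 0.9997 in limma) and Gata3 and Elf5 without 32D1 (adjusted p = 0.590 in limma). In each case the tumour left out was the only one in which that gene went the other way, so a lower p followed from its removal. The share of all genes under that limit in these fits is not given here, so the counts have no background beside them. The count of probe sets that differed between tumours, 16, was 26 with no filter, 8 with the dimmest 60% left out, and 0 to 1 with a tumour left out, where fewer arrays entered the fit; for the filters the cause was not tested. Without the tumour as a replicate block, 0 members and 0 probe sets passed for total tumour against biopsy, so the block changed no call. The median difference of the members lay between -0.25 and 0.02 with a tumour left out and was -0.29 with the dimmest 60% left out, where Ehf was not tested. Array weights moved the means of Stat5a, Stat5b and Ehf by over 1.5 times, to -0.92, -0.50 and 0.34, with no change of sign or call; the cause was not tested. Signal near or under the limit restricts what can be said of Foxa1, of Elf5 in total tumour 32D1, and of Csn2 and Acta1. The same holds for Greb1, Tff1, Glycam1, Wap and Socs2.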
